A study of Mus musculus with 20 samples.

Results

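The genes described here are the core of the MHC class I presentation pathway together with the inducible subunits of the proteasome. They were chosen by name: H2-D1, H2-K1, B2m, Tap1, Tap2, Tapbp, Psmb8, Psmb9, Psmb10 and Nlrc5, 10 of the 16047 genes in the deposited matrix, and all 10 were present. They were measured in 1367 single cells of C57BL/6 lymph nodes. The mice had been immunized 15 days earlier with NP-KLH, the hapten NP on the carrier protein KLH, in Sigma Adjuvant System and had received tamoxifen by gavage 4 days before the sort, and all groups compared here share both. The cells were index-sorted as eYFP-positive B cells and plasma cells, and the allele or Cre driver behind the reporter is not given in the sources used here. Each cell carries a sort gate (plasma, 393 cells; pre-plasma, 282; dark zone, 325; light zone, 367) and the authors' annotation as 1 of 7 states (plasma, 480 cells; activated pre-plasma, 29; memory-like pre-plasma, 63; light-to-dark zone, 48; pre-memory, 17; dark zone, 452; light zone, 278). The cells lie on 20 plates, 10 plates with 741 cells of C57BL/6M and 10 with 626 cells of C57BL/6F. These names end in the letter that the authors' column Sexe also holds. How many mice they stand for is not in the labels, so sex, animal and handling cannot be told apart, and each p-value covers plate-to-plate spread alone.

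MHC class I molecules show peptides from inside a cell to CD8 T cells. The heavy chains, here the classical molecules H2-D1 and H2-K1, fold in the endoplasmic reticulum with the invariant light chain beta-2 microglobulin (B2m). Tap1 and Tap2 form the transporter that carries peptides into that compartment, and tapasin (Tapbp) holds empty class I molecules beside it. Psmb8, Psmb9 and Psmb10 are the catalytic subunits that replace Psmb5, Psmb6 and Psmb7 when a proteasome is built as an immunoproteasome, and they are known for induction by interferon gamma and for high levels in lymphoid cells. Nlrc5 is a transactivator that raises transcription of class I genes. Germinal centre B cells alternate between a light zone, where they meet T cells, and a dark zone, where they divide, and plasma cells that leave this reaction turn most of their protein synthesis to antibody.

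All but 3 of these genes lie in the major histocompatibility complex on chromosome 17. In the GENCODE M21 annotation of GRCm38, H2-K1 spans chr17:33996017-34000347 on the minus strand, Tapbp chr17:33915899-33929292 on the plus strand and H2-D1 chr17:35262730-35267499 on the plus strand. Psmb9 (chr17:34181987-34187764, minus strand), Tap1 (chr17:34187553-34197225, plus), Psmb8 (chr17:34197721-34201454, plus) and Tap2 (chr17:34203527-34216321, plus) form 1 cluster, in which Psmb9 and Tap1 overlap head to head by 212 bases. B2m lies at chr2:122147686-122153083 on the plus strand, Psmb10 at chr8:105935735-105938444 on the minus strand and Nlrc5 at chr8:94434356-94527272 on the plus strand. Use of strand in the counting is not given in the sources used here, so reads from the Psmb9 and Tap1 overlap cannot be told apart. The same holds for the antisense or overlapping genes annotated at B2m, Tap2, Tapbp, Psmb8, Psmb10 and Nlrc5. Of the stretches of 50 bases in the first 500 bases of their coding transcripts, 9.20% in H2-K1, 3.87% in H2-D1 and 5.39% in Tapbp also occur in another gene, so reads there are uncertain between copies.

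The promoters of 4 members whose transcripts differed between the cell groups are shown because the same short motifs recur in them. Each window holds 250 bases before and 50 after the RefSeq start on GRCm38.p6, read 5′ to 3′ on the gene's strand: H2-D1 at chr17:35262844-35263143 (plus), H2-K1 at chr17:34000298-34000597 (minus), B2m at chr2:122147437-122147736 (plus) and Tap1 at chr17:34187306-34187605 (plus). Capitals mark matches on either strand. The motifs are GGGGATTCC (a class I kappa B element), TGACG (the core of an X2 or CRE-like box) and CCAAT (a Y box). A strict form of the interferon-stimulated response element, in capitals in the B2m window, was marked too.
H2-D1: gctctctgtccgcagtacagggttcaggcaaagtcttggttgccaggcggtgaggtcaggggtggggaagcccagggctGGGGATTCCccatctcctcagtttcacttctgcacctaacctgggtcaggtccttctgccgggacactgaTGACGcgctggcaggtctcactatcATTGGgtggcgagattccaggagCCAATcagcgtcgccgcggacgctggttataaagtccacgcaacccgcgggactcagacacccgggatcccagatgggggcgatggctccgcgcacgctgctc
H2-K1: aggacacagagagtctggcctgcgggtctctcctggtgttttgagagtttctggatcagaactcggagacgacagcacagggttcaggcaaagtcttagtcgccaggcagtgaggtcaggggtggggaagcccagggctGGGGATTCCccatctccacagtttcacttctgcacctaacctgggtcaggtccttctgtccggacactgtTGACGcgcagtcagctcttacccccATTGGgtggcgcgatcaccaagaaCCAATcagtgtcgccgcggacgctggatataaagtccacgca
B2m: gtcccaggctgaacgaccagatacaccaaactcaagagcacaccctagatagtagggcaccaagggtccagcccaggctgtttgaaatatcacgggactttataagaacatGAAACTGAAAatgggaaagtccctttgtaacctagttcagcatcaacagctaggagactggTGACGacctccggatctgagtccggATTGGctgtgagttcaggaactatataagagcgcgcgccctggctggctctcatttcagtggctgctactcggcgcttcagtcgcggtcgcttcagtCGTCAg
Tap1: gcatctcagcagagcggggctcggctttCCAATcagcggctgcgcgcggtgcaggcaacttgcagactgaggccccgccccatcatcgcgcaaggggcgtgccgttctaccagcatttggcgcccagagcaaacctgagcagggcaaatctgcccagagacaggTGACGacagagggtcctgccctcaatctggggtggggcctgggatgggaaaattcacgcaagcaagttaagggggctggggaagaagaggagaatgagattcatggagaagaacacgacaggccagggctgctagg
No match overlaps another in these 4 windows. The 2 heavy chain windows aligned over 239 bases, of which 211 (88.3%) were identical. Windows were found for 8 of the 10 members, all but Tap2 and Nlrc5. The motif GGGGATTCC was in 2 of the 8, H2-D1 and H2-K1, against 0.250% of 32851 windows of all genes. TGACG was in 5 of 8 against 20.8% of all windows, and CCAAT in 6 of 8 against 37.4%. The Tap1 and Psmb9 windows share 275 bases, and their TGACG and CCAAT matches are the same sites, counted for both genes. With the likeness of the heavy chain windows, the 8 windows are therefore not independent. The strict form of the interferon-stimulated response element was in 1 of 8, B2m, against 3.44% of all windows. Looser forms of that element were not searched for, so the other windows, H2-D1 and H2-K1 among them, may hold one. A gamma-activated site (TTCNNNGAA) was in 1 of 8, Psmb8, against 8.30%. These matches describe letters and are not evidence of binding.

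Counts are whole numbers per gene and cell, and they stop at the number of different molecular tags that 5 bases allow. No member reached that ceiling. B2m came nearest, with a highest count of 928 in 1 cell and 303 cells at least as close to the ceiling as to 0, so differences in B2m are compressed, and those of H2-D1 (84 such cells) and H2-K1 (31 such cells) to a smaller degree. Counts were summed per plate and cell group, and 19 plates of 3208858 to 11908095 counts entered the comparisons. Plate 6 of C57BL/6F, with 10 cells and 5979 counts, fell below the minimum of 10000 counts. Levels below are CPM (each count relative to the pool's total, scaled by TMM) within each comparison, and a pool cannot tell fewer cells with a transcript from less of it per cell. Markers went with the sort gates. In the plasma gate against the germinal centre gates all 7 plasma cell markers were higher, and all 8 germinal centre markers tested, of 9, were lower. In the plasma state against the germinal centre B states all 7 were higher and all 9 lower. Transcripts may have served to assign those states, so their markers do not test the label.

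The sort gates come from flow cytometry, before any transcript was read, so they do not depend on the genes tested. On the TMM scale the heavy chains and B2m stood highest in the plasma gate, lower in the pre-plasma gate and lowest in both germinal centre gates. Psmb8 and Psmb10 did not follow that order. Under spike-in scaling, given further on, the plasma gate was higher than the pre-plasma gate for B2m and not for the heavy chains. In the plot of levels by gate, B2m had a median of 7784 CPM over the 19 plates in the plasma gate, 3206 CPM in the pre-plasma gate, 2187 CPM in the dark zone gate and 2353 CPM in the light zone gate. The medians of Psmb8 were 1240 CPM in the plasma gate, 827 CPM in the pre-plasma gate, 1141 CPM in the dark zone gate and 1158 CPM in the light zone gate. The difference between the dark and light zone gates, neighbours at the low end for B2m, did not pass the test given further on.

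**Figure D1:**
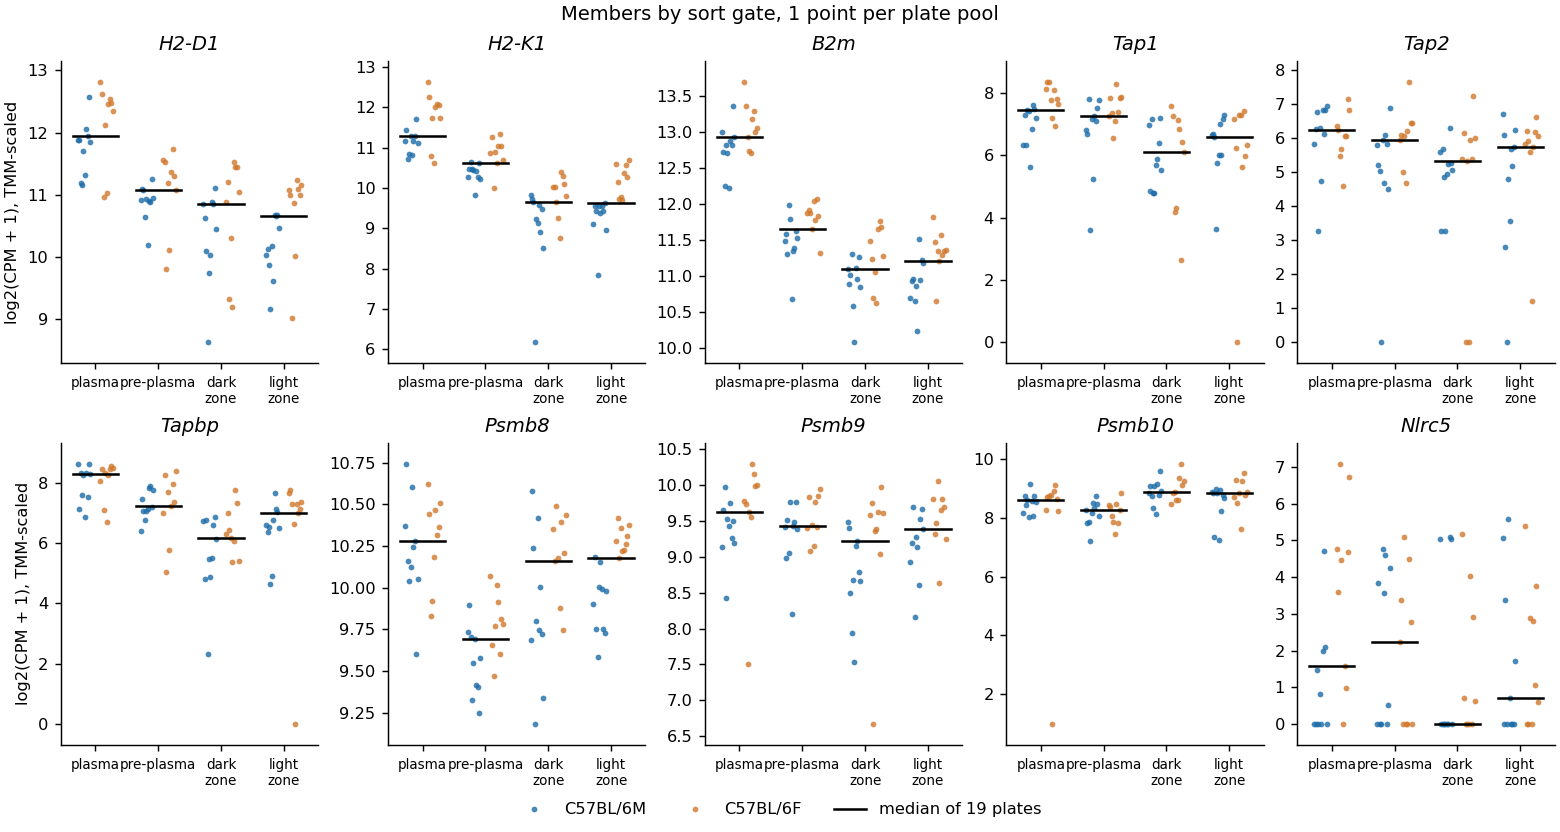
Level of each member as log2(CPM + 1), scaled jointly over the gates, with 1 point per plate, C57BL/6M and C57BL/6F apart, and a bar at the median of 19 plates. The plasma gate of B2m ran from 4769 CPM up, above every plate of the other 3 gates, whereas the 4 gates overlapped for Psmb9, Tap2 and Nlrc5.

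In plasma-gate cells against cells of the dark and light zone gates, the heavy chains, B2m, tapasin and Tap1 were higher and the immunosubunits were not called. In edgeR's quasi-likelihood test with the plate as a block and Benjamini-Hochberg adjustment over 6865 genes, 5 of the 9 members tested passed an adjusted p of 0.05, all 5 higher. Over all genes 34.9% passed, 13.6% higher and 21.3% lower. The median log2 fold change was 0.93 over the members tested and -0.50 over all genes. Nlrc5 was too low to be tested.

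H2-D1 ranged from 1816 to 6546 CPM with a median of 3638 in the plasma gate, and from 554 to 2710 CPM with a median of 1591 in the germinal centre gates. On 14 of 19 plates the plasma gate lay above every germinal centre pool. The log2 fold change was 1.35 ± 0.06 (SE), or 2.56-fold, with an adjusted p of 1.8e-15 in edgeR, and H2-D1 was higher on 19 of 19 plates. H2-K1 ranged from 1473 to 5775 CPM (median 2425) in the plasma gate and from 187 to 1545 CPM (median 764) in the germinal centre gates. Only 1 plasma-gate pool lay within the germinal centre range, and the log2 fold change was 1.73 ± 0.12, or 3.32-fold, with an adjusted p of 9.5e-12 in edgeR. B2m ranged from 4479 to 12038 CPM (median 7088) in the plasma gate and from 1185 to 3167 CPM (median 2172) in the germinal centre gates. The groups did not overlap. Its log2 fold change was 1.71 ± 0.06 (adjusted p 5.2e-18 in edgeR), and 2.12 where each count was corrected for tags that collide, an alternative chosen after the count ceiling was seen.

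Of the loading machinery, Tapbp stood at 97.3 to 388 CPM (median 296) in the plasma gate and at 18.3 to 163 CPM (median 105) in the germinal centre gates. It was higher on 18 of 19 plates, with a log2 fold change of 1.45 ± 0.22 and an adjusted p of 1.2e-05 in edgeR. Both chains of the transporter were low. Tap1 had 45.5 to 299 CPM (median 166) in the plasma gate and 10.2 to 163 CPM (median 88.8) in the germinal centre gates, and the groups overlapped. Its log2 fold change of 0.93 ± 0.33 passed narrowly (adjusted p 0.0315 in edgeR, 14 of 19 plates higher), and the call was lost within either set of plates, with 0.64 (adjusted p 0.338) in C57BL/6M and 1.26 (adjusted p 0.118) in C57BL/6F. It was also lost with cells at the count ceiling left out (0.63, adjusted p 0.172), with DESeq2's size factors (0.84, adjusted p 0.0560) and with genes of at least 1 count (0.93, adjusted p 0.0663). Tap2 had medians of 69.9 CPM in the plasma gate and 46.1 CPM in the germinal centre gates and did not pass (0.69 ± 0.36, adjusted p 0.145 in edgeR). The other 4 called members kept their calls within each set of plates. H2-D1 gave 1.40 in C57BL/6M and 1.32 in C57BL/6F, H2-K1 1.85 and 1.61, B2m 1.75 and 1.68, and Tapbp 1.67 and 1.22, each pair in that order.

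None of the 3 immunosubunits passed in that comparison. Psmb8 had 756 to 1625 CPM (median 1142) in the plasma gate and 762 to 1491 CPM (median 1189) in the germinal centre gates. Those ranges coincide, and the log2 fold change of 0.06 had a 95% interval of -0.10 to 0.22. Psmb9 had medians of 722 CPM in the plasma gate and 645 CPM in the germinal centre gates (0.15 ± 0.12, adjusted p 0.366 in edgeR). Psmb10 had medians of 366 CPM in the plasma gate and 475 CPM in the germinal centre gates, and it was lower on 17 of 19 plates. Its log2 fold change of -0.55 ± 0.29 did not pass (adjusted p 0.150 in edgeR), with 1 plasma-gate pool as low as 0.917 CPM.

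**Figure D2:**
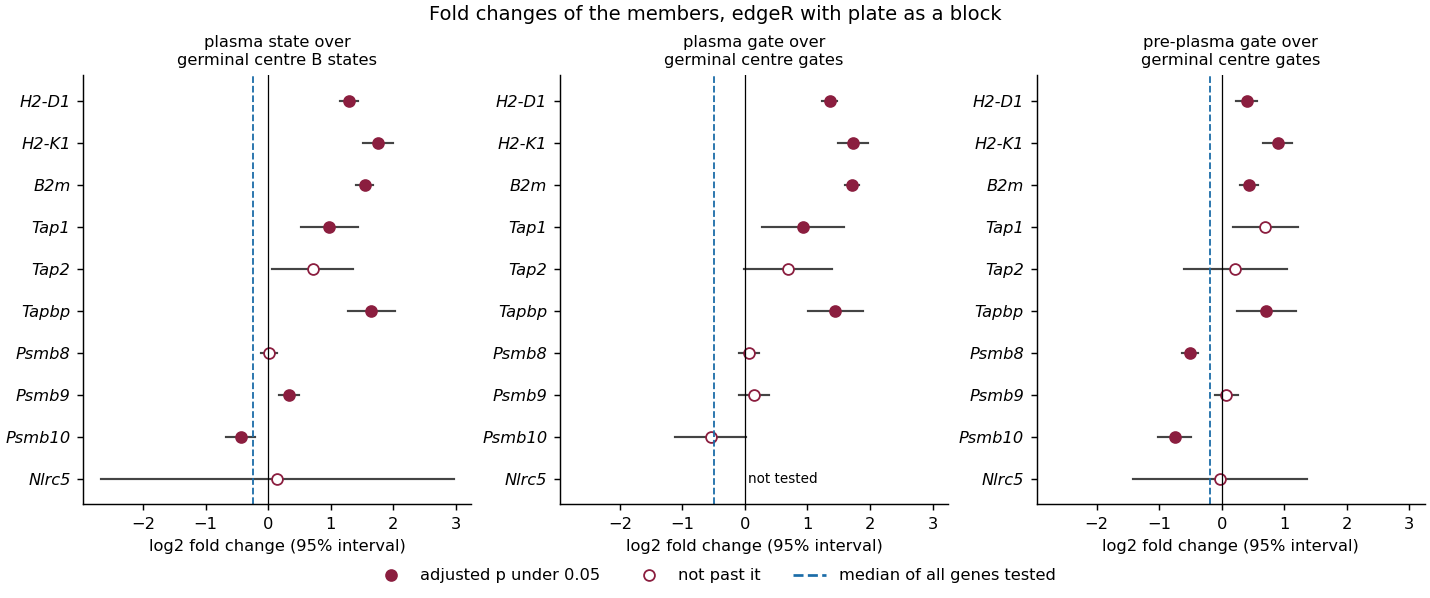
Log2 fold change of each member with its 95% interval in 3 comparisons: plasma state over germinal centre B state, plasma gate over germinal centre gates and pre-plasma gate over germinal centre gates. The dashed lines mark the median of all genes tested. H2-K1 reaches 1.75 and 1.73 in the first 2 and 0.89 in the third, while Psmb8 lies at 0.01, 0.06 and -0.51, a pre-plasma value that turns positive under spike-in scaling.

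The pre-plasma gate holds a mixture. By the authors' annotation its 282 cells were 128 plasma, 29 activated pre-plasma, 27 memory-like pre-plasma, 11 light-to-dark zone, 63 dark zone, 23 light zone and 1 pre-memory. Against the germinal centre gates, H2-D1, H2-K1, B2m and Tapbp were higher in it, and Psmb8 and Psmb10 were lower on the TMM scale (at 0.48 and 0.25 under spike-in scaling). In edgeR's quasi-likelihood test over 7150 genes, 6 of 10 members passed, 4 higher and 2 lower, against 15.2% of all genes, 7.09% higher and 8.14% lower. The members' median log2 fold change was 0.31 and that of all genes -0.19. The plasma and pre-plasma comparisons share the germinal centre pools.

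H2-K1 had 953 to 2616 CPM (median 1643) in the pre-plasma gate and 199 to 1651 CPM (median 841) in the germinal centre gates. Despite the overlap of ranges it was higher on 19 of 19 plates (0.89 ± 0.12, adjusted p 2.8e-06 in edgeR). B2m had medians of 3292 CPM in the pre-plasma gate and 2399 CPM in the germinal centre gates and was higher on 17 of 19 plates (0.44 ± 0.07, adjusted p 8.0e-05 in edgeR). H2-D1 had medians of 2138 CPM in the pre-plasma gate and 1724 CPM in the germinal centre gates (0.40 ± 0.09, adjusted p 0.00123 in edgeR), and the call was lost without the plate block (adjusted p 0.154) and within C57BL/6F plates (0.24, adjusted p 0.0967). Tapbp had medians of 154 CPM in the pre-plasma gate and 115 CPM in the germinal centre gates and passed narrowly (0.72 ± 0.24, adjusted p 0.0445 in edgeR). It lost the call in 7 of the alternatives, among them the fit without the plate block (adjusted p 0.0575) and each set of plates alone, with 0.99 in C57BL/6M (adjusted p 0.0710) and 0.40 in C57BL/6F (adjusted p 0.661). Tap1 (0.69 ± 0.27, adjusted p 0.0811 in edgeR), Tap2 (0.22 ± 0.42) and Nlrc5 (-0.03 ± 0.71) did not pass.

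Psmb8, the chymotrypsin-like immunosubunit, had 637 to 1100 CPM (median 866) in the pre-plasma gate and 808 to 1568 CPM (median 1278) in the germinal centre gates. It was lower in the pre-plasma gate on every plate, by a log2 fold change of -0.51 ± 0.07 (adjusted p 1.2e-06 in edgeR). Psmb10, the trypsin-like one, had 159 to 452 CPM (median 310) in the pre-plasma gate and 232 to 904 CPM (median 504) in the germinal centre gates. It was lower on 17 of 19 plates (-0.75 ± 0.14, adjusted p 0.00019 in edgeR). Psmb9 had medians of 705 CPM in the pre-plasma gate and 699 CPM in the germinal centre gates and did not pass (0.08 ± 0.09, 95% interval -0.11 to 0.26). Within C57BL/6M plates Psmb8 gave -0.44 and Psmb10 -0.65 (adjusted p 0.0680 for Psmb10), and within C57BL/6F plates -0.60 and -0.86.

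The direction of these 2 immunosubunits depends on the scaling. Cells of the pre-plasma gate held more RNA: the median cell gave 39.7 counts per spike-in count, against 23.3 in the dark zone gate and 24.6 in the light zone gate, and 26.5 in the plasma gate. Scaled by the spike-in RNA, the median of all genes moved to 0.81 in the pre-plasma gate against the germinal centre gates, with 2334 genes higher and 147 lower. On that scale Psmb8 was higher (0.48, adjusted p 0.000167 in edgeR) and Psmb10 was at 0.25 (adjusted p 0.251). Both stayed below that median, and both heavy chains and B2m stayed above it, with H2-D1 at 1.39, H2-K1 at 1.89 and B2m at 1.42. In the plasma gate against the germinal centre gates the same scaling left the median at -0.52 and the members nearly where they were, with B2m at 1.71 and Psmb8 at 0.06.

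**Figure D3:**
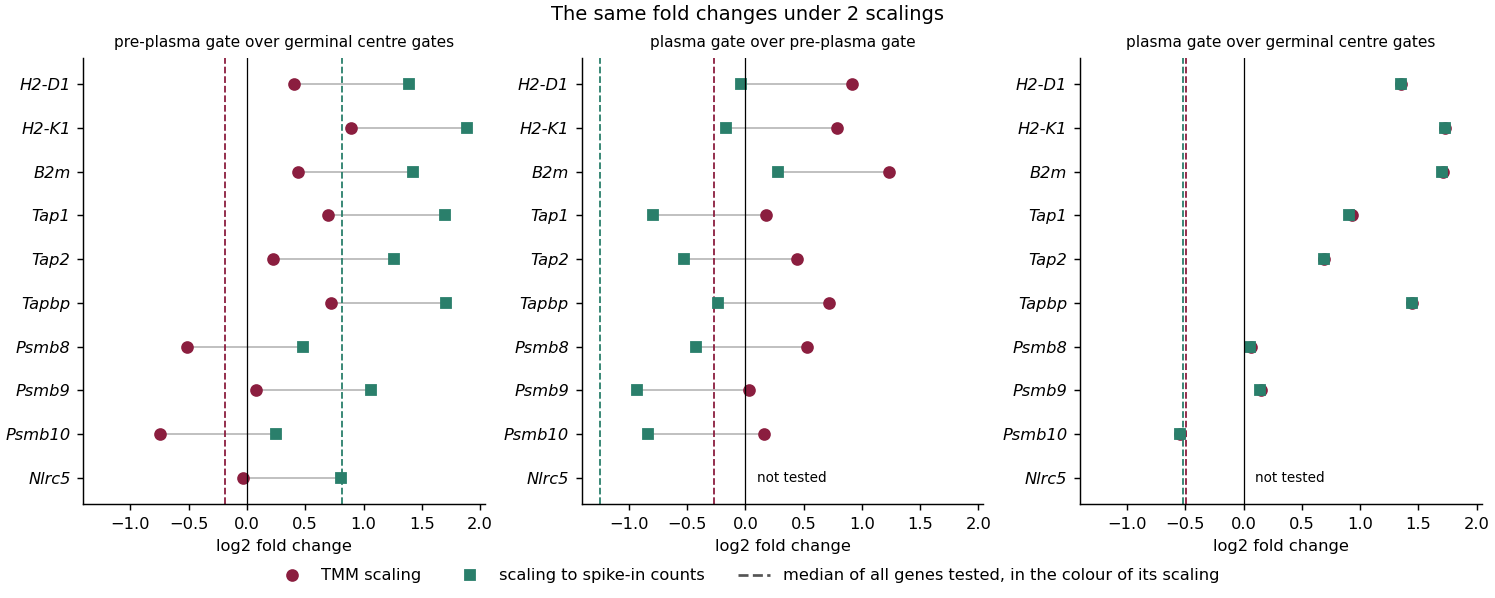
Log2 fold change of each member under TMM scaling and under spike-in scaling in the 3 gate comparisons, with the median of all genes as a dashed line for each. For the pre-plasma gate over the germinal centre gates, spike-in scaling moves Psmb8 to 0.48 against -0.51 and the median of all genes to 0.81 against -0.19.

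Plasma-gate cells set against pre-plasma-gate cells had higher heavy chains, B2m, Tapbp and Psmb8 on the TMM scale. Of 9 members tested, 5 passed in edgeR, all higher, against 18.1% of 6564 genes, 8.42% higher and 9.69% lower. B2m had 4545 to 12425 CPM (median 7331) in the plasma gate and 1636 to 4235 CPM (median 3201) in the pre-plasma gate. These ranges did not overlap (1.23 ± 0.07, adjusted p 2.1e-13 in edgeR). H2-D1 gave 0.91 ± 0.07, H2-K1 0.79 ± 0.08 and Psmb8 0.53 ± 0.07, each higher on 19 of 19 plates, and Tapbp gave 0.72 ± 0.20 (adjusted p 0.0149 in edgeR, 15 of 19 plates). Under spike-in scaling, which moved the median of all genes to -1.25 from -0.27 on the TMM scale, only B2m among these 5 was still higher (0.28, adjusted p 0.00013 in edgeR). Psmb8 was then lower (-0.42, adjusted p 0.00173), and H2-D1 (-0.041), H2-K1 (-0.17) and Tapbp (-0.24) did not pass.

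The heavy chains, B2m, Tapbp and Tap1 were also higher in the annotated plasma state. Of its 480 cells, 351 lay in the plasma gate, so this comparison largely shares cells and plates with that of the gates. How the states were assigned is not given in the sources used here. Where transcripts served for it, the states are not independent of the genes tested and the values below describe them. Plasma cells were set against the pooled germinal centre B cells (dark zone, light-to-dark zone and light zone). Of 10 members, 7 passed in edgeR, 6 higher and 1 lower, against 30.9% of 7649 genes, 15.1% higher and 15.8% lower. The members' median log2 fold change was 0.85, that of all genes -0.25.

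H2-K1 had 1623 to 4433 CPM (median 2331) in the plasma state and 172 to 1570 CPM (median 720) in the germinal centre B states, with no overlap (1.75 ± 0.12, adjusted p 9.1e-12 in edgeR). B2m had 3642 to 9318 CPM (median 6525) in the plasma state and 1130 to 3051 CPM (median 2277) in the germinal centre B states, again with no overlap (1.54 ± 0.07). H2-D1 had medians of 3658 CPM in the plasma state and 1579 CPM in the germinal centre B states (1.29 ± 0.07, 2.45-fold). These 3 genes and Tapbp (medians of 280 CPM in the plasma state and 95.1 CPM in the germinal centre B states, 1.65 ± 0.19) were higher on 19 of 19 plates. Tap1 was higher by 0.98 ± 0.23 (adjusted p 0.0018 in edgeR, 16 of 19 plates), though not within C57BL/6M plates (0.70, adjusted p 0.193) nor with cells at the count ceiling left out (0.70, adjusted p 0.0898). Tap2 was not called (0.71 ± 0.33, adjusted p 0.109 in edgeR).

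Among the immunosubunits, Psmb8 did not pass, at medians of 1027 CPM in the plasma state and 1132 CPM in the germinal centre B states (0.01, 95% interval -0.12 to 0.14). Psmb9 was higher, at medians of 825 CPM in the plasma state and 614 CPM in the germinal centre B states (0.33 ± 0.08, adjusted p 0.0034 in edgeR). Its call was lost with all cells thinned to 5000 counts (0.17, adjusted p 0.199) and within C57BL/6F plates (0.18, adjusted p 0.426). Psmb10 was lower, at medians of 351 CPM in the plasma state and 434 CPM in the germinal centre B states (-0.44 ± 0.12, adjusted p 0.0043 in edgeR, 17 of 19 plates lower), and it was not called under spike-in scaling (-0.27, adjusted p 0.156), within C57BL/6M plates (-0.39, adjusted p 0.102) or with cells at the count ceiling left out (-0.65, adjusted p 0.0650). Nlrc5 was near the detection limit, with 584 counts in plasma cells and 472 in germinal centre B cells in all and pools at 0 in both, and its 95% interval ran from -2.68 to 2.96.

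Plasma cells and germinal centre cells also differ in the cell cycle, with 75.6% of plasma cells in G1 by the authors' phase, against 34.5% of dark zone, 46.0% of light zone and 10.4% of light-to-dark zone cells. In G1 cells alone, 4 of 9 members passed, all higher: H2-D1 (1.32), H2-K1 (1.82), B2m (1.81) and Tapbp (1.77). Over all genes 1379 of 5055 passed there, 924 higher and 455 lower, with a median log2 fold change of 0.29. The other 3 members called before did not pass in that smaller set of cells: Tap1 at 1.26 (adjusted p 0.166 in edgeR), Psmb9 at 0.55 (adjusted p 0.223) and Psmb10 at -0.65 (adjusted p 0.131). No difference of the plasma effect between C57BL/6M and C57BL/6F was called: the interaction passed for 0 of 10 members and 0 of 7649 genes in edgeR, with 0 members and 188 genes at an unadjusted p under 0.05.

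The balance of each immunosubunit with the constitutive subunit it replaces is a ratio within a pool. Scaling enters it only through the 1 CPM added to each subunit, which weighs where a subunit is near 0. In the plasma state the ratio of Psmb8 to Psmb5 ran from 1.68 to 8.91 (median 3.27) over 19 plates, against 2.78 to 16.0 (median 4.15) in the germinal centre B states. It was lower on 14 of 19 plates, by 0.46 on the log2 scale (SD 0.67), with an adjusted p of 0.0191 in a two-sided permutation test over 9 such ratios, and did not pass in thinned cells (-0.44, adjusted p 0.196). In the pre-plasma gate the median was 2.69, against 4.15 in the germinal centre gates, lower on 15 of 19 plates (log2 difference -0.85, SD 0.95, adjusted p 0.0058 in the permutation test). Psmb10 over Psmb7 had medians of 0.924 in the pre-plasma gate, against 1.56 in the germinal centre gates (log2 difference -0.97, SD 1.10, 16 of 19 plates lower, adjusted p 0.0058 in the permutation test). Psmb9 over Psmb6 did not pass in that comparison (-0.01), nor in the plasma state, at medians of 0.458 in plasma cells and 0.533 in germinal centre B cells (log2 difference -0.23, adjusted p 0.0530 in the permutation test). Psmb10 over Psmb7 in the plasma state had medians of 1.12, against 1.51 in the germinal centre B states, with 1 plasma pool at 64.6, and did not pass (-0.01, adjusted p 0.990 in the permutation test).

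**Figure D4:**
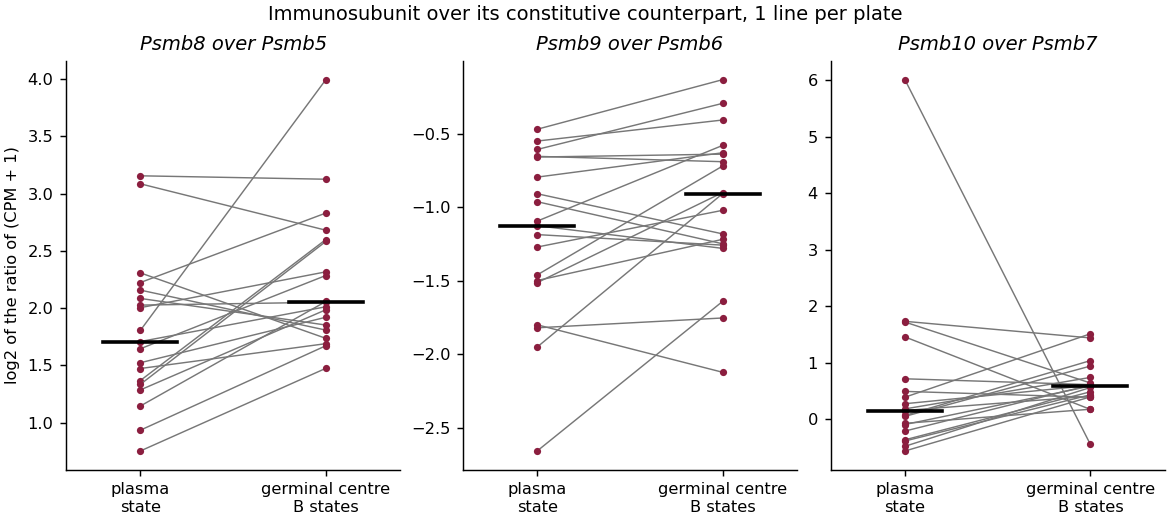
Ratio of each immunosubunit to the constitutive subunit it replaces (log2 axis), plasma state left and germinal centre B states right, with 1 line per plate. For Psmb8 over Psmb5 the line falls toward the plasma state on 14 of 19 plates, and the medians are 3.27 in the plasma state and 4.15 in the germinal centre B states.

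No member passed between dark zone and light zone cells. Between the annotated states 0 of 9 members tested passed in edgeR, against 1.41% of 5447 genes, and 3 members had an unadjusted p under 0.05. The median log2 fold change was -0.24 over the members and 0.44 over all genes. B2m had 1363 to 3413 CPM (median 2394) in the dark zone state and 1668 to 4406 CPM (median 2811) in the light zone state (-0.24 ± 0.08, adjusted p 0.158 in edgeR). Tapbp had medians of 72.1 CPM in the dark zone state and 159 CPM in the light zone state (-1.10 ± 0.49, adjusted p 0.398). The 95% interval was -0.23 to 0.09 for Psmb8 and -0.24 to 0.31 for Psmb10. Between the dark zone gate and the light zone gate 0 of 9 members passed in edgeR, against 0.305% of 5904 genes, with 1 at an unadjusted p under 0.05, H2-K1 (-0.30 ± 0.12, adjusted p 0.739). DESeq2 called 2 members and 569 of 5447 genes between the states, and 0 members and 135 of 5904 genes between the gates.

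Plates of C57BL/6M and C57BL/6F were compared without a block. In germinal centre B cells 0 of 10 members passed in edgeR, against 0.454% of 7715 genes, with 5 at an unadjusted p under 0.05, and in plasma cells 0 of 10, against 0.956% of 7216 genes, with 2 at that level. H2-K1 was the member nearest to a call in plasma cells. It had 1493 to 2534 CPM (median 2041) in 10 C57BL/6M pools and 1785 to 4058 CPM (median 3219) in 9 C57BL/6F pools of plasma cells (-0.52 ± 0.14, adjusted p 0.068 in edgeR). In germinal centre B cells it had medians of 741 CPM in C57BL/6M and 1150 CPM in C57BL/6F (-0.73 ± 0.21, adjusted p 0.159 in edgeR). B2m there had medians of 2037 CPM in C57BL/6M and 2631 CPM in C57BL/6F (-0.42 ± 0.12, adjusted p 0.135 in edgeR). DESeq2 called 2 members and 105 of 7715 genes in germinal centre B cells, and 1 member and 119 of 7216 genes in plasma cells.

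The small states could be pooled only over all plates of C57BL/6M and of C57BL/6F, so that each state had 2 pools and little power. Memory-like pre-plasma cells had B2m at 6892 CPM in C57BL/6M and 11428 CPM in C57BL/6F, beside 6207 and 7172 CPM in plasma cells. Activated pre-plasma cells had 1999 CPM in C57BL/6M and 1890 CPM in C57BL/6F, near the 2035 and 2640 CPM of dark zone cells. On the CPM scale B2m was lower in activated than in memory-like pre-plasma cells (-2.17 ± 0.20, adjusted p 0.0001 in edgeR), the only 1 of 10 members called there, against 0.937% of 10995 genes, 0.537% lower. Per 1000 spike-in counts the direction turned, with 218 in C57BL/6M and 274 in C57BL/6F of the activated state and 92.5 and 138 in memory-like cells, values with no test. Of the 63 memory-like cells, 33 lay in the plasma gate, their pooled counts were 10.3% immunoglobulin, and the 7 plasma cell markers summed to 23746 CPM in C57BL/6M and 29713 CPM in C57BL/6F, beside 18053 and 16571 CPM in plasma cells. The part of these in the B2m level was not tested. The memory-like cells were shallow, with a median of 16638 counts over 376 genes, and the activated cells deep, with a median of 229914 counts over 3691 genes.

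Plasma cells against activated pre-plasma cells had higher H2-D1, at 3482 CPM in C57BL/6M and 4416 CPM in C57BL/6F of the plasma state and 1417 and 1631 CPM in the activated state (1.36 ± 0.21, adjusted p 0.0131 in edgeR). B2m was higher by 1.76 ± 0.20 (adjusted p 0.0015 in edgeR). These were 2 of 10 members, against 0.291% of 10995 genes, 0.282% higher, and both calls were lost without the pairing of pools by sampleID. Light-to-dark zone cells had B2m at 1076 CPM in C57BL/6M and 1639 CPM in C57BL/6F, against 2168 and 3650 CPM in light zone cells (-1.09 ± 0.20, adjusted p 0.0547 in edgeR). Per 1000 spike-in counts they had more, 95.2 in C57BL/6M and 137 in C57BL/6F, against 46.8 and 80.7 in light zone cells, with no test. In that comparison 0 of 10 members passed (0.173% of all genes, 4 members at an unadjusted p under 0.05). No member passed in edgeR between activated pre-plasma and light-to-dark zone cells (0.255% of all genes, 3 members at an unadjusted p under 0.05), between plasma and memory-like cells (0.0728%, 3 members) or between pre-memory and light zone cells (1.35%, 1 member).

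**Figure D5:**
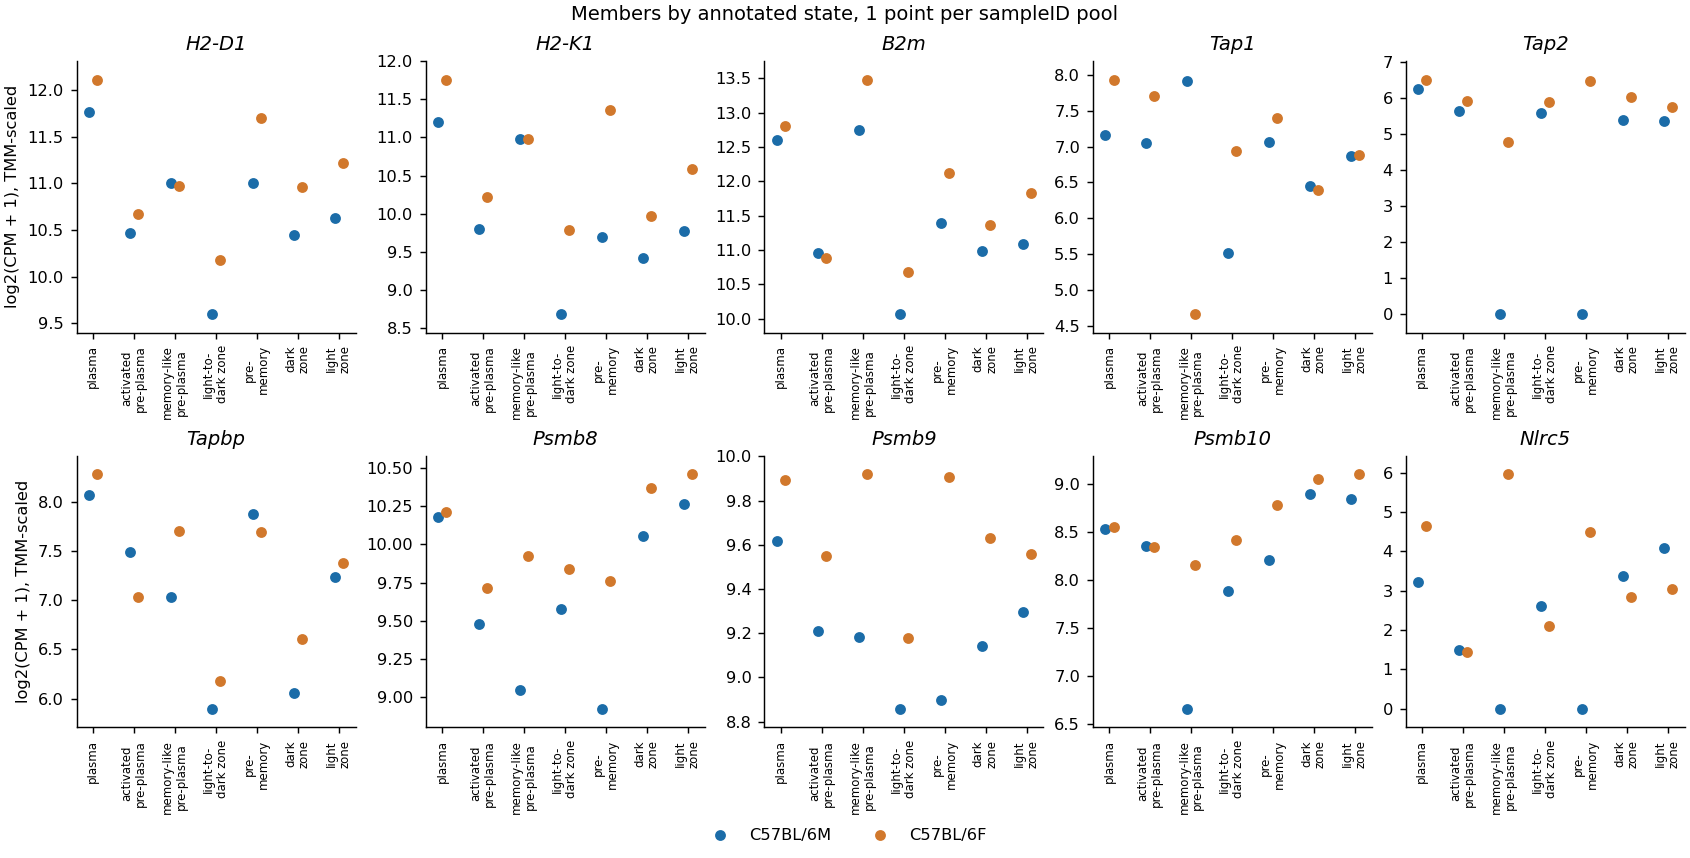
Level of each member, as log2(CPM + 1), in the 7 annotated states, with 1 point for the pool of all C57BL/6M plates and 1 for that of all C57BL/6F plates. Turned back to CPM, B2m is at 6892 and 11428 CPM in memory-like pre-plasma cells and at 1999 and 1890 CPM in activated pre-plasma cells, C57BL/6M before C57BL/6F.

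Counted per spike-in molecule, the activated pre-plasma cells move to the other end. Psmb8 stood at 77.8 counts per 1000 spike-in counts in C57BL/6M and 122 in C57BL/6F in the activated state, against 32.1 and 45.8 in plasma cells and 27.1 and 38.7 in dark zone cells. Psmb10 stood at 35.6 and 47.0 in the activated state, against 10.2 and 14.4 in plasma cells, again C57BL/6M before C57BL/6F. For H2-D1 the activated state had 155 and 237, against 96.3 and 171 in plasma cells. B2m was about level in C57BL/6F, with 274 in the activated state and 277 in plasma cells. In C57BL/6M it was higher in the activated state, at 218 against 172. With 1 pool per state and sampleID these are values with no test.

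In single cells thinned to 5000 counts each, B2m was detected in 99.8% of plasma cells, 87.4% of dark zone and 86.4% of light zone cells. H2-K1 was detected in 90.8% of plasma cells (95% exact interval 87.8 to 93.2), 62.0% of dark zone cells (57.2 to 66.6) and 62.3% of light zone cells (56.0 to 68.2). Tapbp was detected in 48.1% of plasma cells, 17.9% of dark zone cells and 26.1% of light zone cells. A larger share of plasma cells than of dark or light zone cells thus held a count of these genes at equal depth. In light-to-dark zone cells the share was 95.8% for B2m, 85.4% (72.2 to 93.9) for H2-K1 and 25.0% for Tapbp. For H2-K1 it was 93.1% in activated pre-plasma and 94.1% in pre-memory cells, and for B2m 100% in both. High detection of H2-K1 and B2m was therefore not particular to plasma cells. For Psmb8 the shares lay close together, at 85.4% of plasma (81.9 to 88.4), 83.4% of dark zone (79.6 to 86.8) and 82.9% of light zone cells (77.7 to 87.3). Psmb10 was detected in 39.1% of plasma, 48.5% of dark zone and 42.8% of light zone cells. Thinning left out 2 plasma, 23 dark zone and 21 light zone cells, and without it the share for Tapbp was 66.5% of plasma, 31.6% of dark zone and 32.7% of light zone cells. The intervals cover counting error only. Nlrc5 was detected in 63 of 1367 cells (4.61%) at full depth. No cell type in these plates is known to lack class I transcripts, so no background share can be set beside these.

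The rest of the pathway was followed in lists of genes named by role. Of 21 other class I molecules, 8 were high enough to test between the plasma and germinal centre B states, and 7 were higher and 0 lower, with a median log2 fold change of 1.95. Over all genes 15.1% were higher and 15.8% lower, at a median of -0.25. H2-Q7, a nonclassical class I molecule, averaged 426 ± 168 CPM in the plasma state and 47.4 ± 31.5 CPM in the germinal centre B states (SD, n = 19 each; 3.43 ± 0.32 SE, adjusted p 2.7e-09 in edgeR). H2-T24 (2.71) and Cd1d1 (6.87), which presents lipids, were higher too. Of 8 genes for class I folding, loading and peptide trimming, 6 were higher and 1 lower. The signal peptide peptidase H13 averaged 1940 ± 384 CPM in the plasma state and 127 ± 38.4 CPM in the germinal centre B states (3.97 ± 0.12 SE). The chaperone calreticulin (Calr) averaged 694 ± 142 CPM in the plasma state and 98.2 ± 36.5 CPM in the germinal centre B states (2.90 ± 0.20 SE). The tapasin relative Tapbpl was higher by 2.28, and the aminopeptidase Lnpep was lower (-3.50). Calr and H13 are also known to serve secretory proteins in general.

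In the pre-plasma gate against the germinal centre gates, 3 of 7 other class I molecules tested were higher and 0 lower, namely H2-Q7 (2.85), H2-Q6 (1.47) and H2-T22 (1.18), where 7.09% of all genes were higher and 8.14% lower. Of the 8 folding and loading genes, 5 were higher and 0 lower, led by H13 (means of 775 CPM in the pre-plasma gate and 137 CPM in the germinal centre gates), Calr (2.40) and calnexin, Canx (1.39). In the plasma gate against the germinal centre gates these lists counted 7 of 8 higher and 5 of 8 higher (Lnpep lower), against 13.6% of all genes higher. In the plasma gate against the pre-plasma gate they counted 4 of 8 and 3 of 7 higher, against 8.42% of all genes, with H2-T24 at 2.57, H2-T23 at 1.35 and the disulfide isomerase Pdia3 at 0.65 on the TMM scale.

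Several subunits of the proteasome core other than the immunosubunits were higher in plasma cells. In the plasma state, Psmb6 (0.56 ± 0.06) and Psmb5 (0.46 ± 0.16) were higher than in the germinal centre B states and Psmb7 was not called (-0.16 ± 0.33). Of the 11 other core subunits, 6 were higher and 0 lower, among them Psma4 (0.56), Psmb4 (0.52) and Psma3 (0.45). Of 5 activator and assembly genes, the activator subunit Psme2 was higher (0.28) and the assembly chaperone Pomp lower (-0.22). Over all genes 15.1% were higher and 15.8% lower in the plasma state. In the pre-plasma gate none of the 3 constitutive catalytic subunits and none of the 5 activator and assembly genes passed in edgeR. There 2 of 11 other core subunits were higher and 1 lower, against 7.09% of all genes higher and 8.14% lower. Of the cytosolic peptidases tested, insulin-degrading enzyme (Ide) was higher in the plasma state (5.07, 1 of 8) and in the pre-plasma gate (5.08, 1 of 8). The count of 1 in 8 is near the share of all genes in the plasma state.

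Of 23 regulators of class I and interferon signalling, 19 could be tested between the plasma and germinal centre B states, and 3 were higher and 5 lower, with a median log2 fold change of -0.53, against 15.1% of all genes higher and 15.8% lower. The count of higher regulators is near that background. The interferon receptor chains Ifnar1 (2.38 ± 0.89 SE, adjusted p 0.0432 in edgeR) and Ifnar2 (3.66) were among those higher. Irf8, a factor of germinal centre B cells, averaged 46.7 ± 40.9 CPM in the plasma state and 364 ± 84.5 CPM in the germinal centre B states (SD, n = 19 each; -3.79 ± 0.57 SE), and Nfkb1 (-4.63) and the signalling inhibitor Socs1 (-3.68) were also lower. Of 19 interferon response genes tested, 9 were higher and 0 lower, among them Isg15 (5.76), Gbp7 (6.15) and Lgals3bp (8.03), each low in germinal centre B cells. In the pre-plasma gate 0 of 19 regulators were higher and 3 lower (Irf8 -1.60, Jak1 -1.14, Ifngr1 -2.07). There 2 of 16 interferon response genes were higher (Bst2 2.25, Isg15 6.22), against 7.09% of all genes higher and 8.14% lower. Between dark zone and light zone cells, and between C57BL/6M and C57BL/6F, 0 genes of any of these 8 lists passed in edgeR.

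Markers of other cells moved with the plasma state in some lists. The summed level of 6 T cell markers was 38.8 CPM in C57BL/6M and 22.5 CPM in C57BL/6F in plasma cells. In the same order it was 262 and 248 CPM in dark zone cells and 546 and 423 CPM in light zone cells. Cd4 and Cd8a were at 0 in plasma cells, Cd3g and Cd8a in dark zone cells, and Cd3g, Cd4 and Cd8a in light zone cells. The sum of 7 myeloid markers was 1351 CPM in C57BL/6M and 1151 CPM in C57BL/6F in plasma cells. In the same order it was 446 and 419 CPM in dark zone cells and 470 and 505 CPM in light zone cells. Adgre1 was at 0 in plasma cells, Csf1r in dark zone cells, and both Adgre1 and Csf1r in light zone cells. The part of either in the levels of the class I genes was not tested. Immunoglobulin transcripts took 5.49% of counts in plasma cells, against 1.55% in dark zone cells and 1.59% in light zone cells. The count ceiling was reached in 91 plasma cells and in 0 dark zone and 0 light zone cells. Counts at the ceiling are cut short, so the share in plasma cells may be too low. Leaving immunoglobulin genes out changed none of the members' calls between plasma and germinal centre B cells.

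Across the 14 pools of 7 states and 2 sampleIDs, the genes most like the mean profile of H2-D1, H2-K1 and B2m, among 3377 genes of at least 50 CPM, were Ftl1 (Pearson's r 0.925), Ctss (0.910), Ctsb (0.889), Shisa5 (0.887) and Rpl10 (0.883). Those most like the mean of Psmb8, Psmb9 and Psmb10 were Ero1lb (0.879), Ypel5 (0.854), Klf6 (0.841), Prdx5 (0.836) and Phf20 (0.821). The 2 lists share no gene. The 14 points share states, depth and libraries, so these values are descriptions.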

How the data were processed

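Single cells were sorted into plates and processed by FB5P-seq, a 5′-end protocol, with 22 cycles of preamplification per the labels' protocols. The submitters' processing notes name mm10, HTSeq 0.9.1 and STAR 2.5.3a without their roles. The deposited matrix holds raw counts of 16047 genes in 1367 cells. The deposited spike-in share, named a percent, runs as a fraction of a cell's counts. The authors' deposited table of cells gives plate, gate, state and phase. Its plate names match no sample title, so plates were grouped by the sampleID that the same table gives them. No cell barcode is shared by plates.

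Counts were summed per plate and group (at least 5 cells and 10000 counts a pool) and tested with edgeR 4.0.16 (TMM scaling, filterByExpr, glmQLFit and glmQLFTest) in R 4.3.3. The plate was a block, except between C57BL/6M and C57BL/6F, since a plate is 1 library that holds both groups. The small states were compared over 14 pools of state and sampleID, with the sampleID as a block. P-values were adjusted over all genes tested, at 0.05. Ratios of subunits, log2 with 1 CPM added to each, were compared by a two-sided permutation of signs over plates (100000 resamples, SciPy 1.17.1) and adjusted over 9. Fold changes carry an SE, taken from the F statistic, and 95% intervals (1.96 SE). Detection used cells thinned to 5000 counts and exact Clopper-Pearson intervals. The edgeR fits of 6 of the 14 comparisons were tested on simulated data, where they missed most of the changes put in, so a gene that did not pass may still differ. Alternatives were DESeq2 1.42.0 and its size factors, spike-in scaling, no expression filter, larger pools, thinning, no immunoglobulin genes, cells at the count ceiling left out, tag collisions corrected (chosen after the data were seen), no block, each sampleID alone, G1 cells and pools left out in turn.

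All 10 members were looked at in every comparison. The text names only some of them, or none, in several comparisons, among them those of zones, of sampleIDs and of the small states. From each other list up to 3 genes a direction are named, those called with the largest fold change. Psmb7 was named after its values were seen, and 1 gene of the lists is not reported here. The members and lists were chosen with earlier results of these data known.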

Additional observations from a re-analysis of the deposited data

Results flagged for a closer look

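Within each set of plates, 40 groups of pools were screened for a single value far from the rest, and 5 were found, where chance flags about 1 in 20 groups. B2m in germinal centre B cells of plate 16 of C57BL/6M was 1204 CPM, below the next lowest of 10 plates at 1880 CPM, in a pool of 47 cells. Psmb10 in plasma cells of plate 4 of C57BL/6F was 109 CPM, below the next at 257 CPM, in a pool of 15 cells. Tap2 in plasma cells of plate 20 of C57BL/6M was 154 CPM, above the next at 82.0 CPM, in a pool of 29 cells. Nlrc5 in plasma cells of plate 2 of C57BL/6F was 109 CPM, above the next at 38.4 CPM, from 96 counts in 14 cells. Nlrc5 in germinal centre B cells of plate 1 of C57BL/6F was 30.6 CPM, above the next at 10.4 CPM, from 54 counts in 41 cells.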

How the results depend on the processing

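Over the alternatives, calls of single members were kept in 269 of 313 values, lost in 38 and turned in sign in 6. Of values not called, 34 became calls, 3 became calls with the other sign, and 92 changed sign without a call on either side. All 9 turned signs came from spike-in scaling: in the pre-plasma gate against the germinal centre gates Psmb8 0.48 and Psmb10 0.25, and in the plasma gate against the pre-plasma gate H2-D1 -0.041, H2-K1 -0.17, Tap1 -0.79, Tapbp -0.24, Psmb8 -0.42, Psmb9 -0.93 and Psmb10 -0.84. The block pairs groups of 1 plate or sampleID. With no replicate block, 7 of 10 members passed between plasma and germinal centre B states, 5 of 9 between plasma and germinal centre gates, 4 of 10 between pre-plasma and germinal centre gates, 5 of 9 between plasma and pre-plasma gates and 0 of 10 between plasma and activated pre-plasma states, against 7, 5, 6, 5 and 2 with it. Over all genes 2121 of 7649, 1920 of 6865, 909 of 7150, 902 of 6564 and 17 of 10995 passed without the block, in that order. Within each set of plates 4 members passed between pre-plasma and germinal centre gates and 4 between plasma and germinal centre gates, against 6 and 5. Over all genes these fits called 495 of 6888 and 1527 of 6519 in C57BL/6M plates. In C57BL/6F plates they called 529 of 6936 and 953 of 6514. Counts of members called that moved by over 1.5 times, or up from 0, were 4 between plasma and germinal centre B states in G1 cells, 3 between plasma and pre-plasma gates in thinned cells and in C57BL/6F plates, and 1 with DESeq2's size factors and 2 with DESeq2 between dark and light zone states. Between C57BL/6M and C57BL/6F they were, in germinal centre B cells, 2 with DESeq2 and 1 each with spike-in scaling and thinned cells, and in plasma cells 2 with spike-in scaling and 1 each with DESeq2, its size factors, genes of at least 1 count and thinned cells. In the small states they were 1 between light-to-dark and light zone without immunoglobulin genes and with genes of at least 1 count, 2 between activated and memory-like cells with DESeq2, 1 between plasma and memory-like cells with DESeq2, genes of at least 1 count and thinned cells, and 1 between pre-memory and light zone with DESeq2 and its size factors. With 1 pool left out, where a lone pool is assumed to vary like the others, the counts were 1 to 1 for plasma against activated cells, 0 to 1 for plasma against memory-like cells and 0 to 1 for pre-memory against light zone cells. The ratio of Psmb9 to Psmb6 in plasma against germinal centre B cells passed with 10 CPM added (-0.23, adjusted p 0.0495 in the permutation test), in pools of at least 10 cells (-0.23, adjusted p 0.0442) and in thinned cells (-0.44, adjusted p 0.0045), and between dark and light zone in pools of at least 10 cells (-0.40, adjusted p 0.0314), while Psmb8 to Psmb5 in thinned plasma cells did not pass (-0.44, adjusted p 0.196). Over all genes DESeq2 called 3629 against 2367 with edgeR between plasma and germinal centre B states, 569 against 77 between dark and light zone states, 3730 against 2398, 1982 against 1089, 2364 against 1189 and 135 against 18 in the 4 gate comparisons (plasma and pre-plasma over germinal centre, plasma over pre-plasma, dark over light zone), 105 against 35 and 119 against 69 between C57BL/6M and C57BL/6F in germinal centre B and plasma cells. In the small states edgeR called 8 to 148 genes and DESeq2 150 to 1876. Spike-in scaling called 2481 and 2699 genes for the pre-plasma gate over germinal centre gates and the plasma over the pre-plasma gate. Between plasma and pre-plasma gates 722 of 1548 genes passed in thinned cells and 302 of 6278 in C57BL/6F plates. Depth limits Nlrc5, Tap2 and Tap1, with 1112, 6362 and 13814 counts in all cells. The causes of these changes were not tested.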
